A study of Mus musculus with 2 samples.

Results

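The Pbx and Meis genes encode the PBX and MEIS proteins of the TALE class of homeobox transcription factors, and 6 of them are described here: Pbx2, Pbx3, Pbx4, Meis1, Meis2 and Meis3. Every accessible site was given to the protein-coding gene with the nearest transcription start site. A site counted as a promoter site when its midpoint lay within 1 kb of that start and as distal when it lay farther away. By this rule 265 of the 209299 peaks of replicate 1 and 313 of the 219061 peaks of replicate 2 belonged to the 6 genes, as did 214 of 178464 and 258 of 188815 hotspots, the wider enriched regions deposited beside the peaks. The gene nearest to a site need not be the gene it acts on.

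Sites came from DNase-seq, which maps chromatin open enough for the nuclease DNase I to cut. Per the labels, the tissue was embryonic facial prominence, the outgrowths from which the face forms, taken from healthy mouse embryos of strain B6NCrl at 11.5 days with both sexes pooled. There was 1 group of 2 libraries, biological replicates 1 and 2, from separate biosamples under the same donor label, with no genotype or treatment to compare. All results are therefore descriptions of 2 libraries with no test between conditions, and the spread between them may be technical.

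Peaks were 150 bp in width, and a whole number deposited with each is called strength here. Its scale differed between the libraries, with a median of 16 in replicate 1 and 42 in replicate 2. Strength is therefore given per library, with its percentile among all peaks of that library. A peak of replicate 1 was called shared when a peak of replicate 2 covered at least 75 bp of it. In tissue of mixed cells, a site open in fewer cells and a site less open in each cell cannot be told apart.

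PBX proteins bind DNA as partners of MEIS and of the related PREP proteins, and together these complexes guide HOX and other homeodomain proteins to their sites. MEIS partners also keep PBX proteins in the nucleus. In the mouse, combined loss of Pbx genes in the facial ectoderm gives cleft lip and palate, and loss of Meis2 from the neural crest gives cleft palate and other defects of the face. The facial prominences hold neural crest mesenchyme beneath an ectodermal sheet.

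The labelled tissue was checked against marker genes. All 6 facial mesenchyme markers had a shared promoter peak, as did 4 of 5 ectoderm markers (Krt18 did not) and all 4 neuronal and all 3 forebrain markers. This held for 1 of 4 endothelial, 1 of 4 erythroid, 0 of 3 macrophage and 2 of 3 muscle markers. Of all protein-coding genes, 61.6% had one. Within replicate 2 alone, 4 of 4 endothelial, 3 of 4 erythroid and 3 of 3 muscle markers had a promoter peak. In replicate 1 alone, 1, 2 and 2 did. No macrophage marker had one in either library. Shared distal peaks reached 41 at a forebrain, 27 at a facial mesenchyme, 22 at an endothelial and 19 at a macrophage marker. The highest number was 13 at neuronal, 12 at ectoderm, 3 at muscle and 1 at erythroid markers. These counts do not show whether such cells were absent. The part that neuronal and forebrain cells play in the sites below was not tested.

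All 6 genes had at least 1 shared promoter peak, where 61.6% of the 21670 protein-coding genes did. Together they held 16 shared promoter peaks, out of 28 promoter peaks in replicate 1 and 32 in replicate 2. Of all promoter peaks, 63.3% of those in replicate 1 and 57.4% of those in replicate 2 were matched in the other library. The strongest promoter peak of each gene was above the 87th percentile of all peaks, distal ones included, in both libraries and had a match. Promoter peaks are stronger than distal ones in general. The 16 shared promoter peaks had median strengths of 55 in replicate 1 and 91.5 in replicate 2. Over all 24079 shared promoter peaks the medians were 59 and 100.

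Pbx3, whose loss in mice causes failure of breathing at birth, had the strongest promoter peak of the 6. It lies on chromosome 2 (gene ENSMUSG00000038718.15, minus strand, 34171457 to 34373142). The peak had a strength of 119 in replicate 1 and 137 in replicate 2, percentiles 99.97 and 99.17, and occupied the same 150 bp in both libraries. It sat 351 bp inside the gene, in an intron of the transcript with the outermost start. A second peak 89 bp before that start had strengths of 89 and 134, and another, 7 bp before a different start, had 72 and 102. Pbx3 thus had shared sites at 2 of its 5 annotated starts beside the one inside the gene, each called at identical positions in both libraries.

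Pbx4 is known for its expression in mouse testis, and Pbx2 is a broadly expressed gene whose loss alone gives mice no overt defect. The single shared promoter peak of Pbx4 (chromosome 8, ENSMUSG00000031860.17, plus strand, 69832491 to 69872292) had strengths of 96 and 133 in replicates 1 and 2, percentiles 97.9 and 98.4. It was centred 20 bp before the start in replicate 1. Pbx2 (chromosome 17, ENSMUSG00000034673.14, plus strand, 34591266 to 34597400) had 3 promoter peaks in replicate 1 and 7 in replicate 2, with 2 shared promoter peaks. The stronger, 52 bp before a start inside the gene, had strengths of 81 and 129, and the weaker had 27 and 75. The first annotated start of Pbx2 lies within the gene Gpsm3, and peaks near it overlapped between libraries by at most 70 bp, too little to be shared.

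Among the Meis genes, Meis2, the member needed in neural crest for palate and face, had the most shared promoter peaks, 5. The strongest of these (chromosome 2, ENSMUSG00000027210.20, minus strand, 115863064 to 116065839) lay over an exon with strengths of 67 and 123, percentiles 93.2 and 96.4. Meis1 (chromosome 11, ENSMUSG00000020160.18, minus strand, 18879817 to 19018985), known for its role in blood stem cells and leukaemia, had 3. Its strongest, 86 bp before the start, had strengths of 75 and 122, percentiles 94.7 and 96.2. Meis3 (chromosome 7, ENSMUSG00000041420.18, plus strand, 16175090 to 16186504), known from hindbrain patterning in Xenopus, had 2, with strengths of 50 and 89 at the stronger. Its percentiles, 87.6 and 87.5, were the lowest of the strongest promoter peaks of the 6 genes.

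The sequences of the strongest promoter peaks of Pbx3 (chr2:34372716-34372865) and Meis1 (chr11:19018996-19019145) are shown on mm10, on the minus strand and so in the direction of the gene, because they are the strongest promoter sites of these genes in both libraries. Those of the other 4 genes overlap annotated untranslated regions and are not shown.
Pbx3 promoter peak: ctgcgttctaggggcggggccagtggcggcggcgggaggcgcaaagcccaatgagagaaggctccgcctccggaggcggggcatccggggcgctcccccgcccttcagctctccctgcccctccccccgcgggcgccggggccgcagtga
Meis1 promoter peak: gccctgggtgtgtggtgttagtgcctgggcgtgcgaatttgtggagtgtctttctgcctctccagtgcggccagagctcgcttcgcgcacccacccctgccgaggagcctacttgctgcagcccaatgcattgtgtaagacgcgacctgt
The Pbx3 peak was 77.3% G and C and held 2 matches to GGGCGG, the SP and KLF factor string, and 1 to CCAAT, the NF-Y string. The Meis1 peak was 61.3% G and C with 1 CCAAT and no GGGCGG. Over the 16 shared promoter peaks of the 6 genes, 5 held GGGCGG (31.2%) and 5 held CCAAT, against 45.7% and 21.7% of all 24079 shared promoter peaks.

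**Figure D1:**
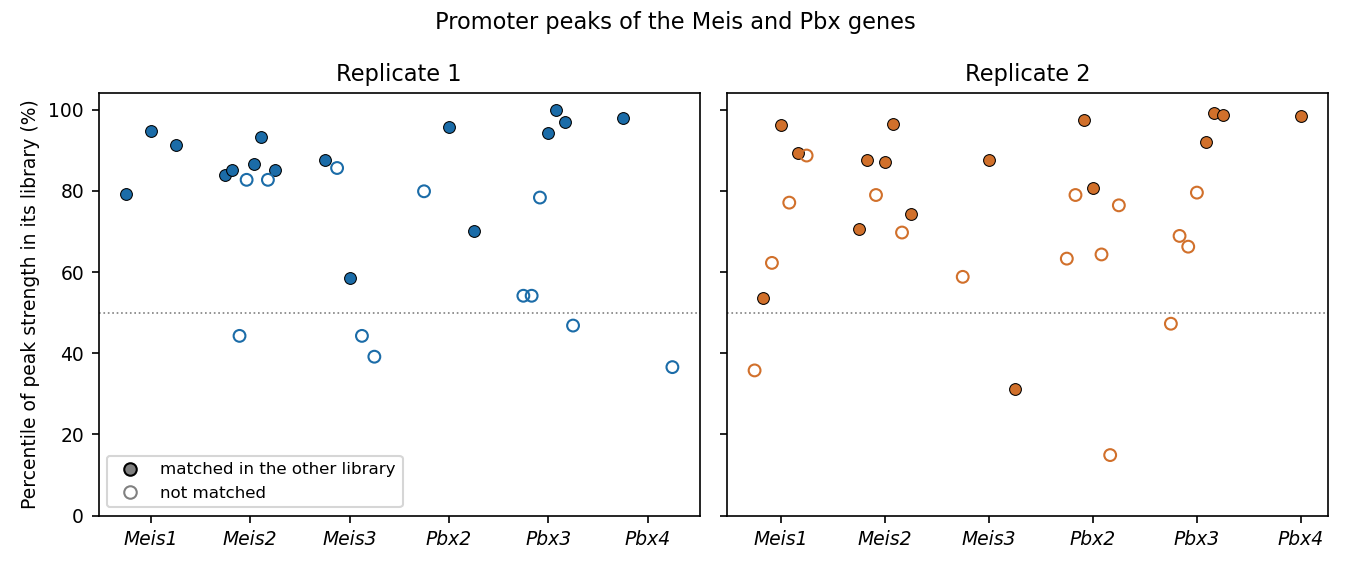
Strength percentile of each promoter peak within its library, for replicate 1 (left) and replicate 2 (right). Each circle is 1 peak, filled where the other library has a match. The dotted line is the median of all peaks, distal ones included. The strongest peak of every gene lies above the 87th percentile, with Pbx3 at 99.97 and 99.17.

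Distal sites were spread far less evenly. The 6 genes had 95 shared distal peaks, of which Meis1 had 44, Meis2 36, Pbx3 12 and Meis3 3, while Pbx2 and Pbx4 had none. Of all genes, 61.8% had at least 1, with a median of 1 per gene. Meis1 stood at percentile 99.9 of all genes in this number, Meis2 at 99.7, Pbx3 at 95.2 and Meis3 at 71.5. Counted from the other library, 42 peaks of replicate 2 at Meis1, 33 at Meis2, 11 at Pbx3 and 3 at Meis3 were matched. The order of Meis1 and Meis2 depended on reach: within 100 kb of a start, Meis2 had 22 shared distal peaks and Meis1 18.

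The number of sites nearest to a gene grows with the stretch of genome nearest to its starts, its interval. That interval was 985 kb for Meis1, which lies between Etaa1 and Spred2, and 649 kb for Meis2, between BC052040 and Tmco5. It was 260.4 kb for Pbx3, 46.0 kb for Meis3, 32.6 kb for Pbx4 and 4.88 kb for Pbx2. Sharing out all 61871 shared distal peaks by interval length would give Meis1 23.1, Meis2 15.2, Pbx3 6.12, Meis3 1.08, Pbx4 0.767 and Pbx2 0.115. The observed numbers were 1.90 times this value for Meis1, 2.36 for Meis2, 1.96 for Pbx3 and 2.78 for Meis3. A ratio above 1 was found for 44% of all genes, and these ratios stood between percentiles 73.1 and 83.6 of all genes. Per length of genome, Meis1, Meis2 and Pbx3 thus stood lower among all genes than by number, and Meis3 higher.

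**Figure D2:**
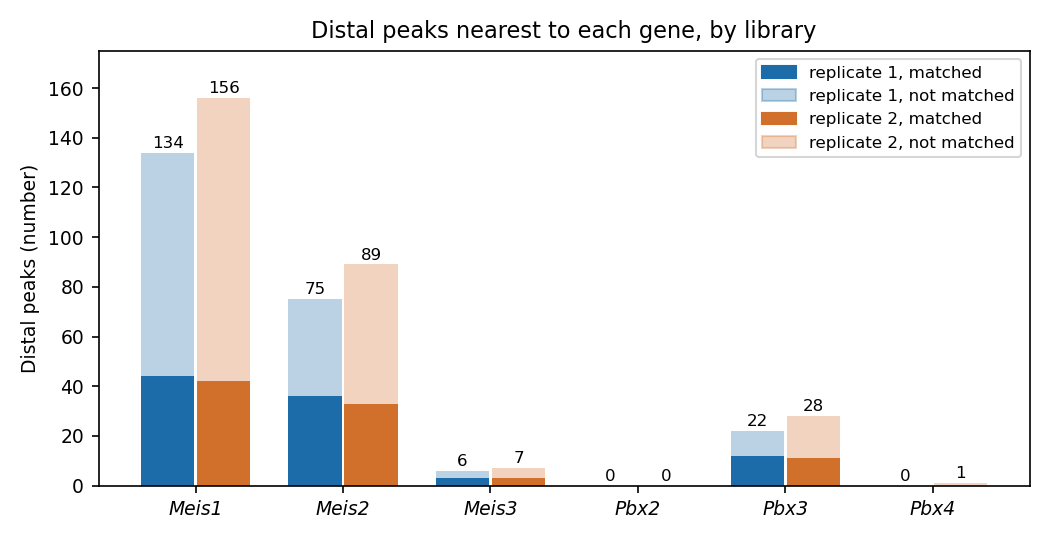
Number of distal peaks nearest to each gene in replicate 1 (left bar) and replicate 2 (right bar), solid where the other library has a match and pale where it has none. Meis1 leads with 134 and 156 peaks, and Pbx2 and Pbx4 have 1 between them.

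Of the distal peaks of the 6 genes, 95 of 237 in replicate 1 were matched in replicate 2, or 40.1% (95% exact binomial interval 33.8 to 46.6%), against 36.1% of all distal peaks of replicate 1. In replicate 2, 89 of 281 were matched, or 31.7% (26.3 to 37.5%), against 34.1% of all. Both backgrounds lay within these intervals, which cover counting error only and treat peaks as independent. By gene, the replicate 1 share was 54.5% for Pbx3 (12 of 22), 48.0% for Meis2 (36 of 75) and 32.8% for Meis1 (44 of 134, interval 24.97 to 41.5%). Matched peaks of Meis1 had a median strength of 24.5 in replicate 1, against 9 for the unmatched ones. At Meis2 these medians were 31 and 24, and at Pbx3 22.5 and 14.5.

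The sites of Meis1 fell on all sides of the gene: 13 shared distal peaks inside it, 16 upstream and 15 past its 3' end. Distances to the nearest start ran from 1.34 to 443 kb with a median of 141 kb, and 26 of 44 lay beyond 100 kb. The strongest was 1526 bp upstream, with strengths of 91 in replicate 1 and 132 in replicate 2, the 97.2nd and 98.2nd percentiles, both higher than at the promoter peak. The next, 8466 bp upstream, had 61 and 116. The third by rank lay 1946 bp past the 3' end, with 69 and 101. Far upstream, 5 shared peaks lay between 404966 and 443146 bp from the start, the strongest with 52 and 107, in an intergenic stretch nearer to Meis1 than to any other protein-coding start.

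The strongest distal site and the strongest site past the 3' end of Meis1 are shown as examples of its open elements (mm10, minus strand: chr11:19020436-19020585 and chr11:18877796-18877945).
Meis1 upstream peak: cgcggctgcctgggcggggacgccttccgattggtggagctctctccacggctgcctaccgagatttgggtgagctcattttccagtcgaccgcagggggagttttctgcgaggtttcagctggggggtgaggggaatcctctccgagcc
Meis1 peak past the 3' end: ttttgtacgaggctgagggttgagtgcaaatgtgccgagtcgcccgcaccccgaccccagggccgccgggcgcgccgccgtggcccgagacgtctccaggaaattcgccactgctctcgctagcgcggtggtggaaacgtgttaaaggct
Both were rich in G and C, at 64.0% and 65.3%, where the median over all 95 shared distal peaks of the 6 genes was 47.3%. Neither held an exact TGACAG, the core bound by MEIS, PREP and TGIF proteins.

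Meis2 had 13 shared distal peaks inside the gene, 13 upstream and 10 past its 3' end, at distances of 1.24 to 212 kb with a median of 49.5 kb. Upstream, 9 lay within 11 kb of the gene, over the noncoding genes 2700033N17Rik and G630016G05Rik. The strongest of all, 1332 bp upstream, had strengths of 93 in replicate 1 and 126 in replicate 2, again above those of the promoter peak (67 and 123). It was followed by a peak 7073 bp past the 3' end with 79 and 108, and by one 5832 bp upstream with 66 and 112. A peak 10292 bp upstream had 59 and 121.

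These 3 strongest distal sites of Meis2 are shown because each holds a string searched for (mm10, minus strand). In capitals are TGATTGAC, the string of PBX bound with PREP or MEIS, in the first (chr2:116067096-116067245). They mark a match to the CTCF consensus in the second (chr2:115855916-115856065) and TGACAG in the third (chr2:116071596-116071745).
Meis2 peak 1332 bp upstream: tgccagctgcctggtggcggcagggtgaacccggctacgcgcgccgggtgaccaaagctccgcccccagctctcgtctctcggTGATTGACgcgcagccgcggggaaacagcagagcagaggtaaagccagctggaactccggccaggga
Meis2 peak past the 3' end: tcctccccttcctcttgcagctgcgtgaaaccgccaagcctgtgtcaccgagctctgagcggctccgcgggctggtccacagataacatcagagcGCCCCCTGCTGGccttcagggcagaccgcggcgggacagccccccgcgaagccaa
Meis2 peak 5832 bp upstream: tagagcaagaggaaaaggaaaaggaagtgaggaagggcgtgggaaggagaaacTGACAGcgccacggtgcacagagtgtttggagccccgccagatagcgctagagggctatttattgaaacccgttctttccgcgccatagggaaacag
The first was the only 1 of the 95 shared distal peaks of the 6 genes with TGATTGAC (1.05%), which stood in 0.472% of all shared distal peaks. A match of letters does not show that the protein was bound.

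All 12 shared distal peaks of Pbx3 lay inside its own 202 kb gene body, 2.66 to 136.6 kb from a start. The strongest, in an intron at 121439 bp, had strengths of 68 in replicate 1 and 118 in replicate 2, percentiles 93.4 and 95.5. Next came a peak at 67359 bp with 32 and 84, over an annotated exon, and one at 15039 bp in an intron with 29 and 61. The weakest had 11 and 23. So 1 intronic site stood well apart from the rest in both libraries. Its sequence is shown (mm10, minus strand, chr2:34249636-34249785), with the reverse complement of TGACAG in capitals.
Pbx3 intronic peak: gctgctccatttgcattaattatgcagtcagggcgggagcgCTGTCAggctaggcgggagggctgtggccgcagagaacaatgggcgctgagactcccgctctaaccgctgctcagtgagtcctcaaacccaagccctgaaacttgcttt
The same 150 bp also held TAATTA, a core bound by many homeodomain proteins, and GGGCGG. Of the 12 Pbx3 peaks, 3 held TGACAG and 1 held TAATTA, where 10.9% and 3.78% of all shared distal peaks did. With 12 peaks these counts are too small to compare with those shares.

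Meis3 had 3 shared distal peaks of nearly equal strength. One lay 6107 bp past its 3' end, with 55 in replicate 1 and 71 in replicate 2. Another lay in the gene, 8461 bp from a start, with 49 and 75. The third lay 21339 bp upstream, in an intron of Slc8a2, with 48 and 74. The first is shown (mm10, plus strand, chr7:16192536-16192685) with its match to the CTCF consensus in capitals.
Meis3 peak past the 3' end: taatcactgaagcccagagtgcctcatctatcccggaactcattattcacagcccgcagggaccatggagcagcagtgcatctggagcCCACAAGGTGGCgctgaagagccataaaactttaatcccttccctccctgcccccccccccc
Pbx4 had 1 distal peak in replicate 2, of strength 26, and none in replicate 1. Pbx2 had none in either library.

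**Figure D3:**
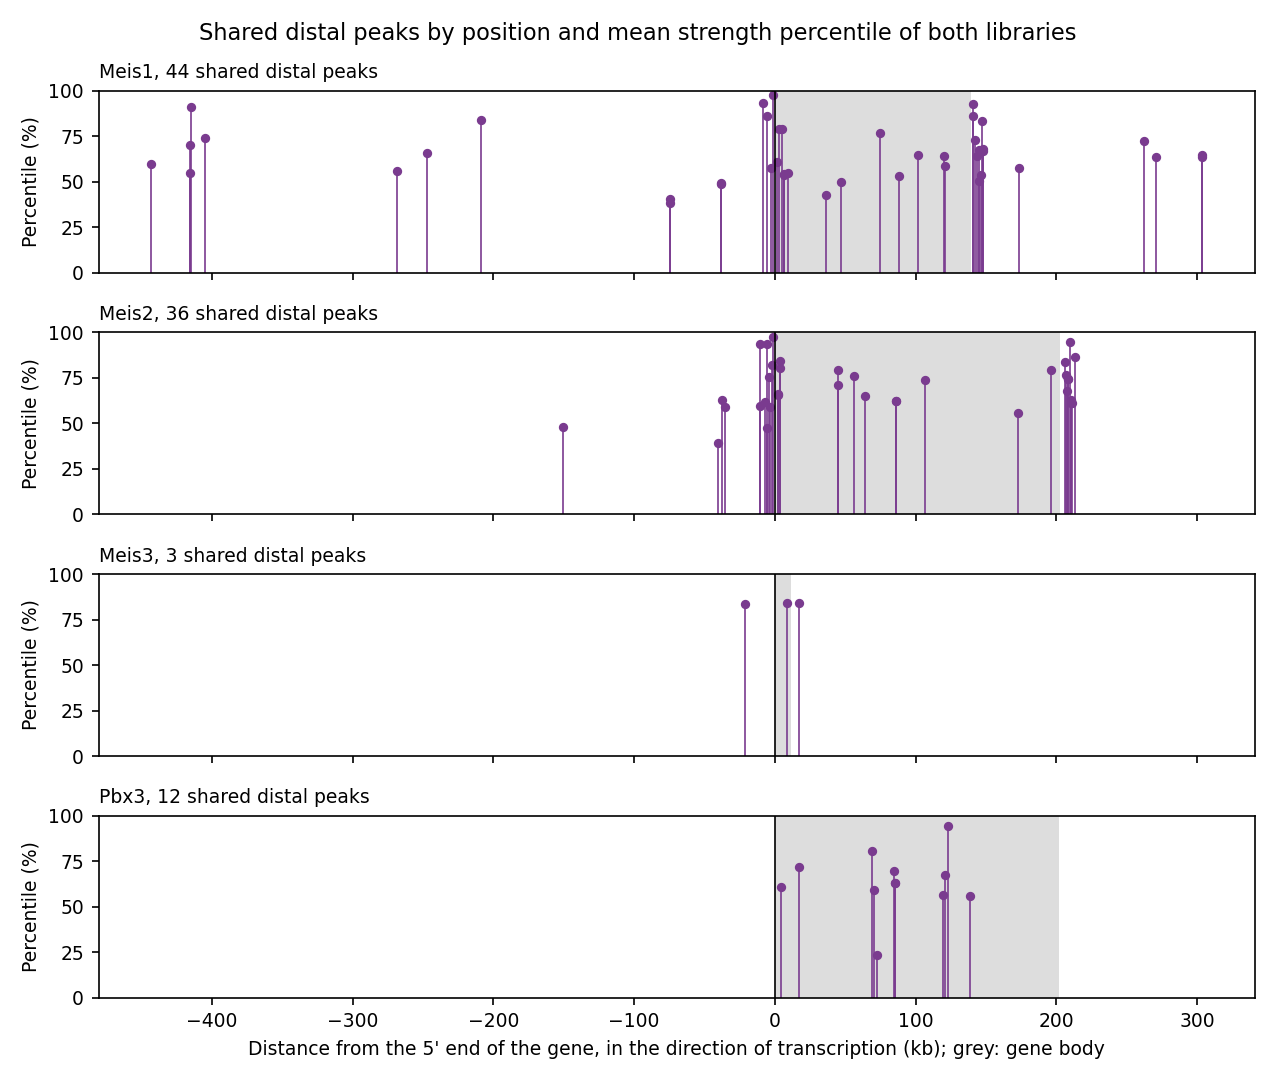
Shared distal peaks by distance from the 5' end of the gene, in kb in the direction of transcription, against the mean strength percentile of both libraries. Grey marks the gene body. Meis1 and Meis2 show dense runs just past the 3' end, while all 12 Pbx3 peaks lie inside the gene. Within 11 kb upstream, Meis2 has 9 peaks and Meis1 4.

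Meis1 and Meis2, related genes on different chromosomes, both had a dense run of shared peaks just past the 3' end. In the 10 kb after the 3' end, Meis1 had 10 shared distal peaks spanning 7.59 kb, and Meis2 had 9 spanning 5.39 kb. At Meis1 strengths ran from 22 to 69 in replicate 1 and from 34 to 101 in replicate 2. At Meis2 they ran from 27 to 79 and from 39 to 108. Over the same 10 kb, hotspots covered 6.59 kb in replicate 1 and 6.97 kb in replicate 2 at Meis1, and 5.18 and 6.40 kb at Meis2. Of all 21670 protein-coding genes, 20 (0.0923%) had 9 or more shared distal peaks in this window and 71.4% had none. The window was chosen after the values were seen. At Meis1, 6 of the 10 peaks lay over the noncoding gene 8430419K02Rik, and at Meis2 all 9 were intergenic. In the same window Meis3 had 1, Pbx4 had 2, both nearest to another gene's start, and Pbx2 and Pbx3 had 0.

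Within this run the choice of overlap mattered for single sites. Among the distal peaks of the 6 genes, the strongest unmatched one of each library stood there, at Meis1, with 61 in replicate 1 (chr11:18877556-18877705) and 95 in replicate 2 (chr11:18877636-18877785). They overlapped each other by 70 bp and so fell just short. The least overlap among shared peaks of the 6 genes was 90 bp, as at the strongest promoter peak of Meis3. At the 1 kb limit, the farthest promoter peaks lay 932 bp from a start in replicate 1 (Meis2, strength 45) and 926 bp in replicate 2 (Meis1, strength 92). The nearest distal peaks lay 1009 bp (Pbx3, strength 18) and 1201 bp (Meis2, strength 46) away.

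**Figure D4:**
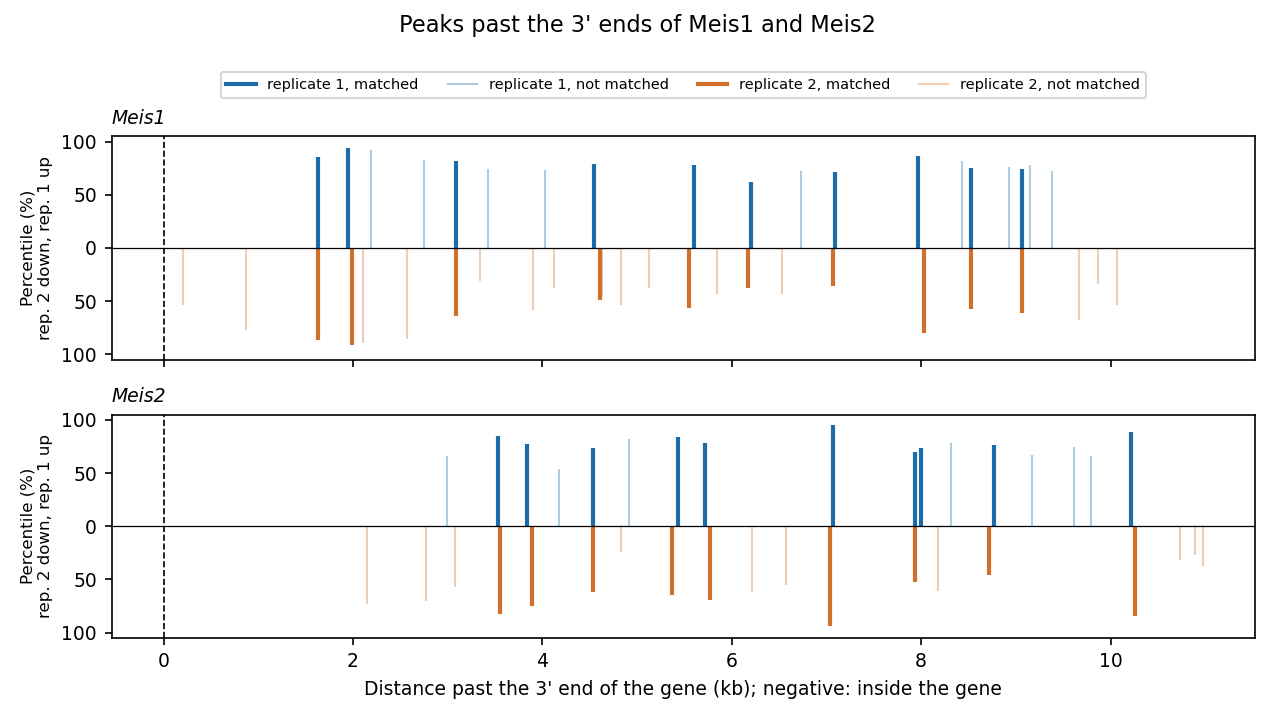
Strength percentile of peaks by distance past the 3' end of Meis1 and Meis2 (dashed line), with replicate 1 drawn upward and replicate 2 downward. Thick lines are matched in the other library and thin pale lines are not. Meis1 has 10 shared peaks and Meis2 9 within 10 kb, and another lies 10213 bp past Meis2.

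One pair of shared peaks was alike in sequence between Meis1 and Meis2. All shared distal peaks of different genes among the 6 were aligned locally in both orientations, 5640 alignments. The highest score, 29, joined a Meis1 peak (chr11:18916896-18917045) and a Meis2 peak (chr2:115979876-115980025). The next, between peaks of Meis2 and Meis3, was 23. Both peaks of the top pair lie in the intron after exon 8 of their gene, in the same orientation. They aligned without a gap over 57 bases, of which 43 were identical (75.4%). Against the other 61868 shared distal peaks of the genome, the highest score was 26 for the Meis1 peak and 23 for the Meis2 peak. Both sequences are shown in the direction of their genes (mm10, minus strand), with the aligned stretch in capitals.
Meis1 intron peak: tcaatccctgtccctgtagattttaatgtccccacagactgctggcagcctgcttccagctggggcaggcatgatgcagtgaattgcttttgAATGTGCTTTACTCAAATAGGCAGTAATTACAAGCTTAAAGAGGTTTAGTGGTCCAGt
Meis2 intron peak: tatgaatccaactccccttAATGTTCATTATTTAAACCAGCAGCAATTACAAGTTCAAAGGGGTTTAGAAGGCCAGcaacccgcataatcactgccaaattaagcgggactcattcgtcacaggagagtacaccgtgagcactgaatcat
The Meis1 peak had strengths of 20 in replicate 1 and 60 in replicate 2, and the Meis2 peak had 18 and 60. By mean percentile the Meis1 peak ranked 21 of 44 among its gene's shared distal peaks and the Meis2 peak 26 of 36. In replicate 1 a second Meis2 peak, 40 bp away, matched the same peak of replicate 2.

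Over the 95 shared distal peaks, TGACAG stood in 10 (10.5%), against 10.9% of all 61871 shared distal peaks. TGATTNAT, the string of PBX bound with HOX, stood in 0 of 95 and in 1.71% of all. TAATTA stood in 8 (8.42%, of which 5 at Meis1) against 3.78%, and GGGCGG in 13 (13.7%) against 8.93%. GCCNNNGGC, the AP-2 string, stood in 7 (7.37%) against 6.16%, and CCAAT in 18 (18.9%) against 18.6%. CATCTG, a form of the E-box, stood in 10 (10.5%) against 18.5%. Both strands were searched, and GGGCGG can lie within longer overlapping runs of itself. The strings of the TALE proteins themselves were thus about as frequent at these genes as elsewhere, or too rare here to compare.

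The widest gap among the strings searched was at the CTCF consensus, allowing 1 mismatch in 12 positions. It was matched in 6 of the 95 peaks (6.32%), 4 at Meis2, 1 at Meis1 and 1 at Meis3, against 26.5% of all shared distal peaks. CTCF is the protein that anchors chromatin loops and insulates neighbouring domains. This search was added after the sequences were seen. Median strengths of the 95 peaks were 28 in replicate 1 and 54 in replicate 2, beside 28 and 63 over all shared distal peaks. Their median G and C content was 47.3% against 50%, and their CpG observed over expected ratio 0.389 against 0.272. Repeats masked more than 50% of the bases in 1 of the 95 peaks (1.05%), against 4.37% of all.

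**Figure D5:**
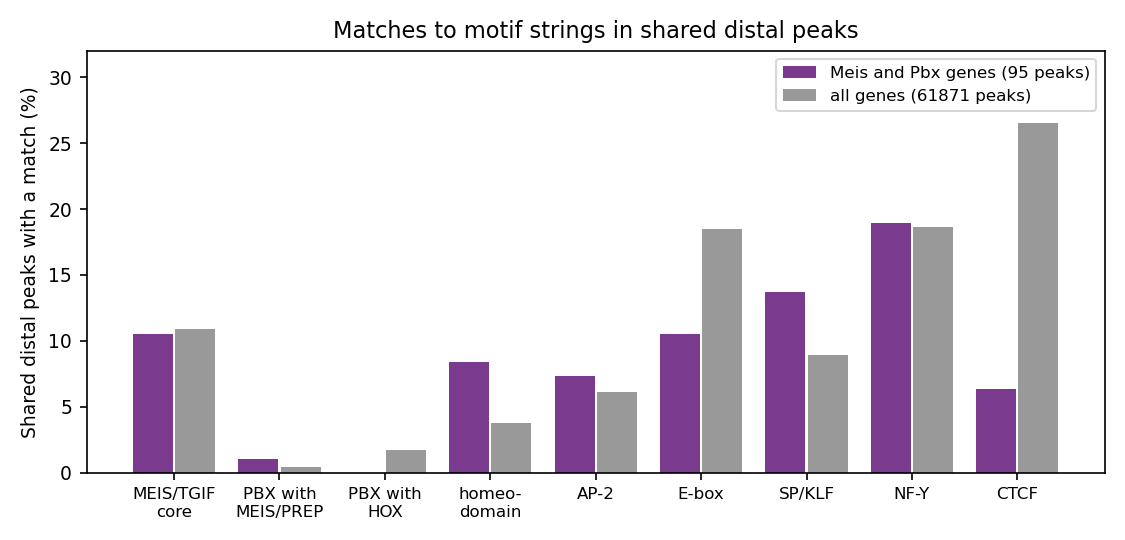
Share of shared distal peaks with a match to each motif string, for the Meis and Pbx genes (purple, 95 peaks) and all genes (grey, 61871 peaks). CTCF matches stand in 6.32% and 26.5%, and the MEIS and TGIF core in 10.5% and 10.9%.

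By annotation, 40 of the 95 shared distal peaks were intergenic (42.1%), against 44.5% of all. Another 30 lay in introns of protein-coding genes (31.6% against 40.1%), 12 in introns of noncoding genes (12.6% against 6.80%) and 13 over exons (13.7% against 8.65%). Their median distance to a start was 83.4 kb, against 28.0 kb over all shared distal peaks. Of the 12 in noncoding introns, 7 were at Meis2 and 5 at Meis1.

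Hotspots gave the same order of the genes. At the promoters, every gene had a hotspot at the ceiling of the deposited −log10 q value, 100, in both libraries. This value was common: 29.4% of all hotspots in replicate 1 and 35.2% in replicate 2 had it, distal ones included. Its share among the promoter hotspots of all genes was not counted, so it does not set these promoters apart. Among the Pbx and Meis genes, the widest promoter hotspots were at Meis1, 5007 bp in replicate 1 and 3520 bp in replicate 2. Those of Pbx4 spanned 989 and 1006 bp, and those of Meis3 995 and 959 bp. Of 193 distal hotspots in replicate 1, 93 were matched by at least 75 bp in replicate 2 (41.5% of all distal hotspots were), with 40 at Meis1, 39 at Meis2, 11 at Pbx3 and 3 at Meis3. Counted from replicate 2, 88 of 244 were matched, where 36.6% of all were. The widest distal hotspot of Meis1 spanned 4015 bp in replicate 1 and 2760 bp in replicate 2, inside the gene, centred 3518 and 2976 bp from a start. That of Meis2 spanned 1766 and 2851 bp, over exons near its starts. That of Pbx3 spanned 768 and 817 bp and held the intronic peak shown above. At Meis3 the widest spanned 355 bp past its 3' end in replicate 1 and 375 bp upstream in Slc8a2 in replicate 2.

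The libraries differed upstream of Meis1, in a stretch chosen after its values were seen. From 100 to 200 kb upstream, replicate 1 had 37 peaks and replicate 2 had 11, and none was shared. The 37 had a median strength of 5 and the 11 a median of 36. Within this stretch, 26 of the replicate 1 peaks stood in a run of 12.01 kb (chr11:19189036-19201045), with strengths of 1 to 9 and no replicate 2 peak among them. Another 8 stood in 2.87 kb with strengths of 2 to 7. Hotspots were also called in the stretch. Replicate 1 had 34 there, of which 8 reached the −log10 q ceiling, out of 12 distal hotspots of Meis1 that did so in this library. Replicate 2 had 11 hotspots there, 2 of them at the ceiling out of 25, and 1 hotspot of each library was matched. Of all hotspots, 29.4% in replicate 1 and 35.2% in replicate 2 were at the ceiling, so such a value was common. Peaks of low strength and hotspots at this ceiling both occurred in the stretch. More than 50% of the sequence was repeat in 2 of the 26 and in 0 of the 8. None of the 37 replicate 1 peaks of the stretch was matched, so leaving it out had to raise the matched share. At Meis1 the replicate 1 share was 45.4% without the stretch and 32.8% with it.

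Genes related by class or by pathway were read the same way. Of 5 genes for other TALE proteins and a PBX-binding protein, all 5 had a shared promoter peak, where 61.6% of all protein-coding genes did. Pknox1 and Pknox2 encode the PREP partners of PBX. Pknox1 had promoter strengths of 108 and 140 and 4 shared distal peaks, and Pknox2 had 70 and 114 and 15. Tgif1 and Tgif2, repressors in TGF-beta and retinoid signalling, had 84 and 130 with 15 distal peaks, and 111 and 145 with 4. Pbxip1, whose product binds PBX proteins, had 47 and 93 and 0. All but Pbxip1 had more shared distal peaks than interval length gives, where 44% of all genes did.

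A second list held genes on which PBX proteins are known to act in the mouse face. Snai1, a regulator of epithelial to mesenchymal change, had promoter strengths of 119 and 137, equal to those of Pbx3, and 15 shared distal peaks where its interval gives 1.51. Wnt3 and Wnt9b, ligands made in facial ectoderm, had promoter strengths of 36 and 66 and of 44 and 91, with 7 and 2 shared distal peaks. Trp63, the master regulator of stratified epithelium, had no promoter peak in replicate 1, a strongest of 40 in replicate 2, and 3 shared distal peaks where its interval gives 11.01. Of these 4 genes, Trp63 alone lacked a shared promoter peak and fell below its interval value.

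For each of the 6 genes, the closest protein-coding genes were sought over 4 measures: strongest promoter peak in each library, number of shared distal peaks, and its ratio to interval length. For Meis1 these were Cdh4 (promoter 75 and 123, 37 shared distal peaks) and Runx1 (73 and 120, 30). For Meis2 they were Rnf220 (68 and 121, 14) and Bnc2 (69 and 116, 48), and for Pbx3 Epc2 (120 and 138, 10) and Hnrnpa3 (125 and 138, 20). For Meis3 they were Trim25 (48 and 91, 3) and Cep170b (53 and 90, 3). Pbx2 was tied with 4 genes of equal values, Rnf6 and Slc27a1 first in order, and Pbx4 with 7, Ddah2 and Mbd1 first, all without distal peaks. The summed percentile difference was 6.77 and 6.84 for the genes closest to Meis1, and 6.51 and 8.90 for those closest to Meis2. It was 4.79 and 5.69 for those closest to Pbx3, and 3.08 and 3.59 for those closest to Meis3.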

How the data were processed

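DNase-seq of mouse facial prominence at 11.5 days was deposited as a peak list and a hotspot list per library, on build mm10 per the labels. The peak score (strength) and the hotspot −log10 q are values deposited by the authors; each list belongs to 1 library. The aligner and caller were not given in the sources used here, and depth is unknown, so strength was used within a library only.

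Elements on chromosomes 1 to 19 and X were assigned by midpoint to the nearest of 54081 start sites of all protein-coding transcripts in GENCODE M21. Shared elements overlapped by at least 75 bp. Sequences were read from GRCm38 (the mm10 assembly in RefSeq) with pysam 0.24.0. Local alignments used match 1, mismatch -1, gap open -2 and gap extension -1. Shares carry exact (Clopper-Pearson) 95% intervals from scipy 1.17.1, for counting error only. Matching, assignment, interval lengths and the search for TGACAG were tested on simulated data. The local alignment was not. With 1 group no test was run.

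All 6 members and the fixed lists were named, except 1 listed gene that is not reported here. Per member, the text gives the strongest promoter peak, the 3 strongest shared distal peaks by mean percentile and the widest distal hotspot. Members and lists were chosen with earlier results of these data known. The run past the 3' ends, the Meis1 stretch and the CTCF search were chosen after their values were seen.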

Additional observations from a re-analysis of the deposited data

How the results depend on the processing

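All 6 genes kept a shared promoter peak under every alternative but one: with an overlap of at least 90% of the peak, 2 did. That setting left 25 shared distal peaks and a matched share of 11.3% of replicate 1 peaks, where the report gives 95 and 41.9%. With any overlap of 1 bp the matched share was 56.6%, and counted from replicate 2 peaks it was 33.5%. The 50000 strongest peaks of each library gave 21 shared distal peaks, and a limit of 100 kb gave 51. The peaks of a single library, with no matching, gave 237 to 281 distal peaks and 193 to 244 distal hotspots. Hotspots at the ceiling in both libraries gave 11, against 93. A promoter window of 2.5 kb, 1 start site per gene, and the start sites of the basic annotation (an alternative chosen after seeing the data) moved the total by less than 1.5 times. The first of these turns the strongest distal peaks of Meis1 and Meis2 into promoter peaks. Over 10 settings, 41 of 60 counts per gene stayed within 1.5 times. Many of the 41 were counts of Pbx2 and Pbx4 that stayed at 0. In 8 settings the order Meis1, Meis2, Pbx3, Meis3 held. In the other 2, Meis2 led Meis1, by 9 to 8 among the strongest peaks, where Meis3 had 3 and Pbx3 1, and by 22 to 18 within 100 kb. No paired analysis was possible because there was 1 group. Of the replicate 1 shared distal peaks, 3 at Meis1, 3 at Meis2 and 1 at Pbx3 matched a replicate 2 peak that an earlier one had matched. Depth is not known, so a site called in 1 library cannot be called absent from the other.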
